A study of Mus musculus with 8 samples.

Results

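The genes described here are cadherins, protocadherins, contactins, contactin-associated proteins, neurexins, neuroligins and leucine-rich repeat transmembrane (LRRTM) proteins of the mouse. They were taken by name: every probe set with a single platform gene symbol for a numbered cadherin (Cdh), a protocadherin (Pcdh), contactins 1 to 6 (Cntn), a contactin-associated protein (Cntnap), a neurexin (Nrxn), neuroligins 1 to 3 (Nlgn) or LRRTM 1 to 4. The choice used no measured value and gave 146 of the 45101 probe sets on the array, for 75 genes. Of these, 70 probe sets for 45 genes were bright enough to be tested, among 17865 tested probe sets for 10398 genes.

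The samples came from translating ribosome affinity purification, in which tagged ribosomes of a chosen cell type are pulled from tissue with an antibody and the RNA bound to them is measured. All mice carried a bacterial artificial chromosome transgene of the line Hcrt JD218, named for hypocretin (orexin), the neuropeptide of a small group of lateral hypothalamic neurons. They were adults of 6 to 12 weeks, of both sexes, on a mixed background of Fvb and c57/bl6j, and no treatment was named. For each of 4 preparations the diencephalon (thalamus and hypothalamus) of 5 mice was pooled, and 2 RNA samples were hybridised to separate Affymetrix arrays. They were the immunoprecipitate and the unbound RNA left after it, so that 4 arrays stood against 4. The unbound RNA is that of the whole dissected block, in which hypocretin neurons are a minor part. Precipitates from mice without the transgene were not analysed here, so the level that RNA carried along without a tag would give is unknown. The fractions differ both in cell type and in ribosome binding, and in such bulk RNA fewer cells of a type and less RNA per cell cannot be told apart.

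Cadherins bind cadherins of the same or related kind on the neighbouring cell through calcium-dependent extracellular repeats, and the classical ones are tied to actin inside the cell by catenins. Clustered protocadherins are expressed in combinations that give a neuron a surface identity, and non-clustered protocadherins act in axon growth and synapse formation. Neurexins sit mainly on the presynaptic side and bind neuroligins, LRRTMs and cerebellins across the cleft. Contactins are immunoglobulin-type proteins held by a lipid anchor that pair with contactin-associated proteins along axons.

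Values are log2 signal after the scales of both fractions were set equal on the biotinylated hybridisation controls. A difference is immunoprecipitate minus unbound, given with its SE. A gene was called higher or lower where limma's moderated test gave a Benjamini-Hochberg adjusted p under 0.05 over all tested probe sets and the difference was at least 2-fold. A gene is represented by its brightest tested probe set. A fold is written as "at least" where some arrays of the lower fraction lay under a signal of 50 (5.64 on the log2 scale), since values there were raised to that floor. The labelled enrichment was visible in Hcrt itself, which was 32.5-fold higher in the immunoprecipitate (5.02 ± 0.25 on the log2 scale, limma adjusted p = 6.5e-07). Between 33.6% and 34.8% of probe sets reached 50 on the immunoprecipitate arrays and between 40.5% and 40.9% on the unbound arrays.

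Most adhesion genes were lower in the ribosome-bound RNA of the Hcrt line than in the unbound RNA, and 2 were higher. Of the 45 tested genes, 32 were called lower, beside 44.2% of all tested genes. The 2 called higher were Cdh22 and Cntn6, beside 4.74% of all tested genes, and the other 11 were not called. Of the 32, 4 (Cdh19, Cntn5, Pcdhb12 and Pcdhb16) lay under 50 on every immunoprecipitate array and entered the test only through the fraction where they were high, so that their calls were favoured by the filter and support nothing. By probe set, 54 of 70 were lower (background 45.1%) and 2 higher (background 4.88%). The 54 include those of these 4 genes and a dimmer probe set of each of Cdh4, Cdh7, Cdh11 and Lrrtm1. These dimmer ones also lay under 50 on every immunoprecipitate array, so that their calls were favoured in the same way. The median difference of the 45 genes was -1.60 on the log2 scale, against -0.85 over all tested genes. The fractions did not overlap in 31 of the 45 genes, beside 57.1% of all tested genes. Both the median and the 31 include the 4 genes under 50 on every immunoprecipitate array. Within the pairs of fractions from the same preparation, 36 genes were lower in all 4 pairs and 6 were mixed. Cdh22, Cntn6 and Cntnap2 were the 3 higher in all 4. The matching share over all tested genes was not counted, so these counts are no result about the members. In pairs 1 to 4 the members' medians were -1.28, -1.42, -1.51 and -1.77. Those over all tested genes were -0.85, -0.85, -0.79 and -0.88.

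How many genes were lower depended on the scale. The calls for 13 of the 32 lower genes were also made after centring on the median of all probe sets, on the median of the tested ones and after quantile normalization. They were Cdh2, Cdh4, Cdh8, Cdh11, Cdh19, Pcdh10, Pcdh11x, Pcdh20, Pcdhb16, Cntn2, Cntn5, Cntnap5a and Nrxn3, a list drawn up after the values were seen. Without those that entered through the unbound arrays alone (Cdh19, Cntn5 and Pcdhb16), 10 remain. Among these, Cdh4, Cdh8, Cdh11, Cntn2 and Cntnap5a reached 50 on only 2 or 3 immunoprecipitate arrays but on all 4 unbound arrays. The immunoprecipitate arrays alone would not have passed these genes, so the filter favoured their calls as well. Only Cdh2, Pcdh10, Pcdh11x, Pcdh20 and Nrxn3 were at or above 50 on all 8 arrays. The centrings and quantile normalization moved the median of all tested genes by 0.81, 0.92 and 0.80 on the log2 scale. They left 19, 14 and 14 member genes lower, beside 22.2%, 19.6% and 20.5% of all tested genes. On each of these scales 4 members were higher, beside 17.5%, 20.4% and 16.5% of all tested genes. The 4 were Cdh22, Cntn6, Cntnap2 and Cntnap4. On the poly-A controls, added to the RNA before amplification, the shift of all genes was -1.97, 43 members were lower and 0 higher, beside 94.5% and 0.673% of all tested genes, with Cdh22 at -0.054 and Cntn6 at -0.88.

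**Figure D1:**
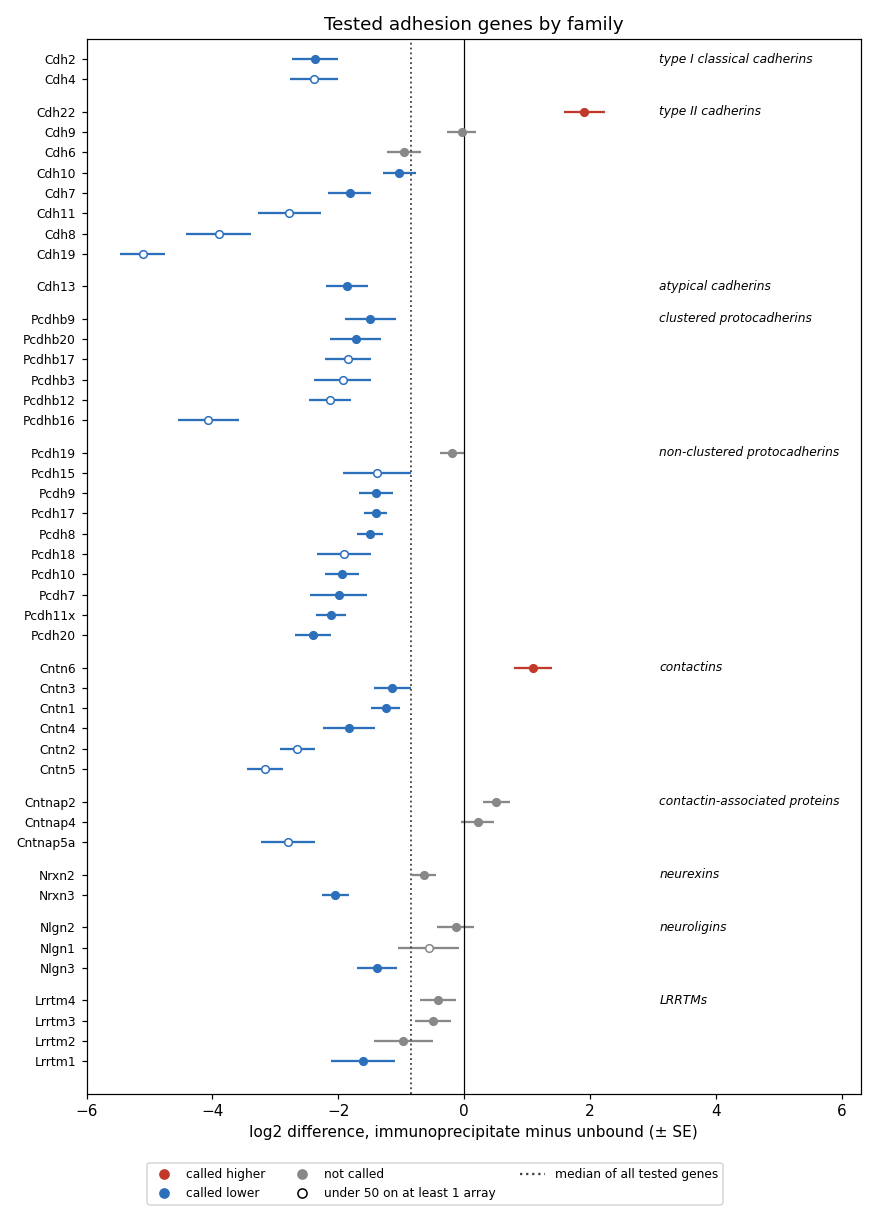
Difference of log2 signal between immunoprecipitate and unbound RNA (x axis) for each of the 45 tested adhesion genes, ordered by family, with bars of 1 SE over 4 arrays against 4. Red points are called higher (Cdh22 and Cntn6), blue lower and grey not called; open points have a value under 50 on at least 1 array, and the dotted line is the median of all tested genes (-0.85).

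The 2 called-higher genes are the ones whose upstream sequence is shown, because no other member was called higher on the biotinylated controls. For each, the 250 bases before the annotated start are given 5′ to 3′ on the gene's strand, from RefSeq on GRCm38.p6, with CG pairs in capitals. That of Cdh22 lies at chr2:165234738-165234987 on the minus strand and that of Cntn6 at chr6:104492794-104493043 on the plus strand.
Cdh22: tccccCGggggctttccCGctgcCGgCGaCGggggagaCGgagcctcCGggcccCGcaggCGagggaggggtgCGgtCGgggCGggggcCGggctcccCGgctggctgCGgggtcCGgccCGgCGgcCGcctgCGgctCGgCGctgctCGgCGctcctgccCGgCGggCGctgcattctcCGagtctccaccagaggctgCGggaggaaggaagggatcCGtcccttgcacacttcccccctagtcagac
Cntn6: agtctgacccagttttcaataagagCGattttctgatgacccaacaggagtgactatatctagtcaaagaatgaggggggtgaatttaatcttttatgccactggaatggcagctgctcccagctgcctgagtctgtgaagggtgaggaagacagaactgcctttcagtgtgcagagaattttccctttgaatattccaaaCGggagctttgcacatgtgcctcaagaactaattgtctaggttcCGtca
The Cdh22 window held 30 CG pairs and was 77.6% G or C, while the Cntn6 window held 3 and was 45.2% G or C. The median over the 40 windows found for 28 of the 45 tested members was 7.5 CG pairs, against 16 over the windows of all tested genes. TAATTA, the core bound by many LIM homeodomain factors and its own reverse complement, was in neither of the 2 windows. It was in 5% of the members' windows (those of Cdh7 and Cntn4, both called lower), in 2.30% of the windows of all tested genes and in 4.84% of all 32851 RefSeq windows.

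Classical cadherins of type I, the adherens-junction family of N-cadherin, were both lower among the 2 of 5 that could be tested, beside 44.2% of all tested genes. Both lie in the longest of 5 equal groups by genomic length, where 66.5% of all genes were lower (median -1.54). Cdh2 (N-cadherin, which holds neural progenitors and synapses together) read 9.94, 8.79, 8.46 and 8.86 on immunoprecipitate arrays 1 to 4 and 12.06, 10.84, 11.09 and 11.54 on the unbound arrays. The fractions did not overlap, and the difference was -2.37 ± 0.36 (5.16-fold lower, limma adjusted p = 0.0003). A second Cdh2 probe set was lower as well, by -1.35. Cdh4 (R-cadherin) read 6.07, 6.18, 5.18 and 4.96 against 7.90, 7.24, 8.18 and 8.62. It was at least 4.31-fold lower (limma adjusted p = 0.00042), with 2 immunoprecipitate arrays under 50.

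Type II cadherins, which mark groups of neurons and their connections, held both Cdh22, which was higher, and several genes that were lower. Of 11 with a probe set, 8 were tested: 5 were lower, 1 higher and 2 not called, with a median of -1.42. Over all tested genes 44.2% were lower and 4.74% higher. All 8 lie in the longest of 5 equal groups by genomic length, where 66.5% of all genes were lower and the median was -1.54. The lower calls were 4, 3 and 3 on the centred and quantile scales, beside 22.2%, 19.6% and 20.5% of all tested genes. Cdh22 read 10.32, 11.23, 11.42 and 11.55 in the immunoprecipitate and 8.55, 9.15, 9.49 and 9.68 in the unbound RNA. Every immunoprecipitate array lay above every unbound array, and replicate 1 was the lowest of both fractions. The difference was 1.91 ± 0.33 (3.76-fold higher, limma adjusted p = 0.00064), and within the 4 pairs it was 1.78, 2.08, 1.93 and 1.86.

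Cdh19, known from glia of the neural crest and oligodendrocyte lineage, showed the opposite pattern. It read 3.68, 2.49, 2.38 and 2.38 in the immunoprecipitate, all under 50, and 8.36, 7.79, 8.06 and 7.18 in the unbound RNA. Against the floor it was at least 4.64-fold lower, and it entered the test through the unbound arrays alone. Cdh8, a cadherin of thalamic and cortical circuits, read 7.04, 5.59, 5.97 and 4.16 against 9.89, 9.18, 9.79 and 9.51. It was at least 11.5-fold lower (limma adjusted p = 0.00013), and a second probe set was lower by -3.01. Cdh11 read 8.03, 6.80, 6.58 and 5.24 against 9.54, 9.83, 9.39 and 9.02. It was at least 6.42-fold lower (limma adjusted p = 0.00083), and in all 3 genes immunoprecipitate replicate 1 was the highest of its fraction.

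Cdh7 was 3.52-fold lower (-1.82 ± 0.34, limma adjusted p = 0.0011), a call lost after centring on the tested probe sets (-0.89) and after quantile normalization (-0.74). The remaining type II genes were named after their values were seen. Cdh10 was 2.05-fold lower, close to the 2-fold limit, and was not called after either centring, after quantile normalization or when any of 4 single arrays was left out (immunoprecipitate replicates 3 and 4, unbound replicates 1 and 4). Cdh6 differed by -0.95 (limma adjusted p = 0.01), short of 2-fold, although its fractions did not overlap. Cdh9 read 8.64, 8.02, 8.40 and 8.41 in the immunoprecipitate and 8.26, 8.29, 8.67 and 8.41 in the unbound RNA. These overlapped throughout, and the difference of -0.04 had a 95% interval from -0.55 to 0.47; it became 0.77, 0.88 and 0.92 on the centred and quantile scales. Cdh5, the VE-cadherin of endothelial junctions, stayed near 2.2 on all 8 arrays in both of its probe sets and was not tested.

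Cdh13 (T-cadherin, a cadherin held by a lipid anchor and lacking the cytoplasmic tail) was the only tested atypical cadherin of 5. It read 6.49, 7.25, 7.28 and 6.47 against 8.48, 8.30, 8.73 and 9.45, with no overlap. It was 3.64-fold lower (-1.86 ± 0.33, limma adjusted p = 0.00073), and this call was lost after centring on the tested probe sets (-0.94) and after quantile normalization (-0.83).

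Clustered protocadherins were mostly too dim: 17 of the 23 genes could not be tested. The 6 tested were all of the beta cluster and were all called lower, beside 44.2% of all tested genes, but 2 of them entered through the unbound arrays alone. On the centred and quantile scales 3, 2 and 1 of the 6 were called, beside 22.2%, 19.6% and 20.5% of all tested genes. Pcdhb16 read 4.55, 3.18, 2.33 and 3.18 against 7.90, 6.77, 8.09 and 6.74, and was at least 3.35-fold lower. Pcdhb12 read 5.39, 5.43, 4.34 and 4.34 against 7.37, 7.12, 6.75 and 6.79, and was at least 2.59-fold lower. Both lay under 50 on every immunoprecipitate array, so their calls were favoured by the filter. Pcdhb17 was at least 3.27-fold and Pcdhb3 at least 2.77-fold lower. These 2 genes reached 50 on 3 and 2 immunoprecipitate arrays and on all 4 unbound arrays. The immunoprecipitate arrays alone would not have passed them, so the filter favoured their calls too. Pcdhb20 and Pcdhb9, named after their values were seen, differed by -1.73 and -1.49. Genes of this cluster are close copies of each other, so a probe set may take signal from its neighbours.

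The alpha cluster had 6 probe sets, each shared by 9 or 14 symbols and therefore outside the rule. Of the 3 that were tested, 1 was lower (-1.28) and the other 2 were not called (-0.64 and -0.40).

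Of 10 tested non-clustered protocadherins 9 were called lower, beside 44.2% of all tested genes, with a median of -1.70. On the centred and quantile scales this fell to 5, 3 and 4 of 10, beside 22.2%, 19.6% and 20.5%. Of the 10, 6 lie in the longest of 5 equal groups by genomic length, where 66.5% of all genes were lower (median -1.54). Pcdh20 read 7.82, 7.09, 7.27 and 7.22 in the immunoprecipitate and 9.57, 10.40, 9.40 and 9.64 in the unbound RNA. The fractions were far apart beside their spread, at 5.28-fold (-2.40 ± 0.29, limma adjusted p = 7.4e-05). Pcdh11x, on the X chromosome, read 8.97, 8.78, 8.59 and 8.17 against 10.97, 10.45, 10.68 and 10.88, and was 4.33-fold lower (limma adjusted p = 5e-05). Pcdh10, which acts in axon outgrowth and synapse removal, read 9.96, 9.10, 9.10 and 8.64 against 11.06, 11.03, 11.38 and 11.13. It was 3.85-fold lower (limma adjusted p = 0.00019). Of its 2 other probe sets, 1 was lower (-2.62) and 1 was not called (-0.71).

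Pcdh7 read 8.89, 7.29, 7.91 and 7.48 against 10.75, 9.96, 8.83 and 10.004. Its fractions overlapped through the highest immunoprecipitate and the lowest unbound array, and the difference was -1.995 ± 0.45 (limma adjusted p = 0.0032), not called after centring on the tested probe sets or quantile normalization. Pcdh18, Pcdh8, Pcdh17 and Pcdh9, named after their values were seen, differed by -1.91, -1.49, -1.41 and -1.40, and each lost its call on at least 1 of the centred and quantile scales. Pcdh9 was the brightest protocadherin probe set in both fractions, at a mean of 12.25 ± 0.56 (SD, n = 4) and 13.65 ± 0.30 (SD, n = 4), although brightness on different probe sets does not order their abundance. Pcdh15 was barely called (-1.38 ± 0.54, limma adjusted p = 0.046) and lost its call when any of 6 single arrays was left out, all but immunoprecipitate replicate 1 and unbound replicate 3.

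Pcdh19, a protocadherin gene linked to epilepsy in girls and named here after its values were seen, was the exception in its family. It read 9.82, 10.04, 9.88 and 9.56 in the immunoprecipitate and 9.89, 10.22, 10.04 and 9.91 in the unbound RNA. The fractions overlapped, with a difference of -0.19 ± 0.19 and a 95% interval from -0.62 to 0.24. A second probe set gave 0.32 and was not called either, and the first gave 0.62, 0.73 and 0.56 on the centred and quantile scales.

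**Figure D2:**
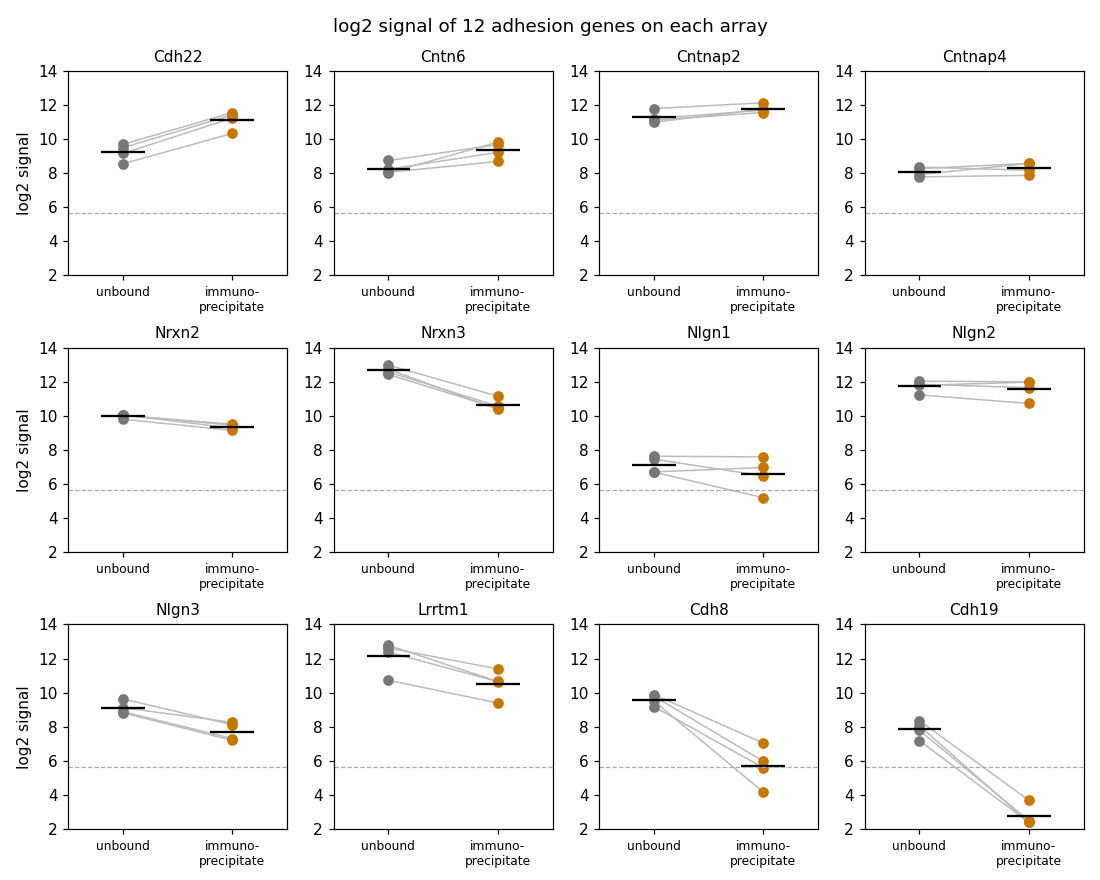
Log2 signal of 12 adhesion genes on each unbound array (grey) and immunoprecipitate array (orange), with lines joining fractions of the same preparation, black bars for group means (n = 4) and a dashed line at a signal of 50. Cdh22 rose by 1.78 to 2.08 in the 4 pairs, whereas all 4 Cdh19 immunoprecipitate values lay under the dashed line.

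Contactins divided, with 5 of 6 lower and Cntn6 higher (median -1.54), beside 44.2% and 4.74% of all tested genes. The 5 lower include Cntn5, favoured by the filter. Of the 6, 5 lie in the longest of 5 equal groups by genomic length, where 66.5% of all genes were lower (median -1.54). On each of the centred and quantile scales 2 contactins were lower, beside 22.2%, 19.6% and 20.5% of all tested genes. Cntn6, a contactin of developing axons and synapses, read 8.68, 9.67, 9.82 and 9.22 in the immunoprecipitate and 8.05, 8.74, 8.02 and 8.23 in the unbound RNA. The lowest immunoprecipitate array lay just under the highest unbound array, yet the immunoprecipitate was higher in all 4 pairs, by 0.63, 0.93, 1.80 and 0.98. The difference of 1.09 ± 0.30 (2.12-fold, limma adjusted p = 0.0097) fell under 2-fold without immunoprecipitate replicate 2 (0.98) or 3 (0.93).

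Cntn5, a contactin of auditory and visual pathways, read 3.45, 4.40, 3.11 and 3.32 against 6.78, 6.59, 6.70 and 6.86. It was under 50 on every immunoprecipitate array, entered the test through the unbound arrays alone, and was at least 2.15-fold lower. Cntn2 (TAG-1, found on axons and at the juxtaparanode of myelinated fibres) read 5.87, 5.82, 6.31 and 5.34 against 8.63, 8.62, 8.08 and 8.63, and was at least 5.97-fold lower (limma adjusted p = 3.6e-05). Cntn1, the contactin of the axonal side of the paranodal junction, read 12.42, 12.20, 11.96 and 11.36 against 13.53, 13.12, 12.96 and 13.33. It was 2.37-fold lower with no overlap (limma adjusted p = 0.0011), and 2 other probe sets were lower by -1.51 and -2.78.

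Cntn4 and Cntn3 were 3.55-fold and 2.20-fold lower (limma adjusted p = 0.0032 and 0.0075). The calls for Cntn1, Cntn3 and Cntn4 were lost on both centrings and after quantile normalization, and that for Cntn3 also without immunoprecipitate replicate 4. A dimmer Cntn3 probe set did not enter the test, being under 50 on all unbound arrays and on 2 of the immunoprecipitate arrays. It went the other way, reading 5.41, 7.15, 5.86 and 5.02 in the immunoprecipitate against 4.86, 4.65, 4.95 and 4.57 in the unbound RNA. The fractions did not overlap there, but with so many values under the floor no size is given. The direction of Cntn3 thus rests on its single tested probe set.

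Contactin-associated proteins were not uniformly lower: 1 of 3 tested was called lower, beside 44.2% of all tested genes. Their median was 0.22, or -1.75 on the poly-A controls. Cntnap5a read 6.91, 6.00, 5.39 and 4.68 against 8.31, 8.66, 8.87 and 8.36, and was at least 5.67-fold lower (limma adjusted p = 0.00032). Cntnap2 (Caspr2, which gathers potassium channels beside the node of Ranvier) read 11.69, 11.76, 11.55 and 12.12 against 11.20, 10.98, 11.11 and 11.78. It was higher in each of the 4 pairs but overlapped between fractions, and the difference of 0.51 ± 0.22 missed the threshold (limma adjusted p = 0.061, 95% interval 0.03 to 0.99). Its second probe set went the other way and was called lower (-1.34, limma adjusted p = 0.011). The probe sets therefore disagree on the direction of Cntnap2, and the mean of both was -0.41.

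Cntnap4 (Caspr4) read 7.86, 8.57, 8.57 and 8.16 against 7.78, 8.26, 7.91 and 8.35, which overlapped. Its difference was 0.22 ± 0.26 (limma adjusted p = 0.49), with a 95% interval from -0.36 to 0.79. Cntnap2 and Cntnap4 were called higher on both centrings (1.32 and 1.44, and 1.03 and 1.14) and after quantile normalization (1.04 and 1.201), and were -1.45 and -1.75 on the poly-A controls.

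Neurexins differed in size of fall. Nrxn3 read 11.15, 10.56, 10.44 and 10.37 in the immunoprecipitate and 12.97, 12.57, 12.43 and 12.73 in the unbound RNA. There was no overlap and the gene was 4.13-fold lower (-2.05 ± 0.21, limma adjusted p = 3.6e-05), with 2 further probe sets lower by -1.73 and -1.13. Nrxn2 read 9.28, 9.15, 9.45 and 9.51 against 10.05, 9.80, 10.04 and 10.02. The fractions did not overlap, but the difference of -0.63 ± 0.19 (limma adjusted p = 0.014) was under 2-fold and turned to 0.18, 0.29 and 0.14 on the centred and quantile scales. The difference between the 2 genes was not tested.

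Of the neurexins' postsynaptic partners, 1 neuroligin of 3 and 1 LRRTM of 4 were called lower, beside 44.2% of all tested genes. Nlgn3, found at both excitatory and inhibitory synapses, read 7.20, 8.26, 8.12 and 7.31 against 8.82, 9.12, 9.63 and 8.88. It was 2.62-fold lower with no overlap (-1.39 ± 0.32, limma adjusted p = 0.0035), a call lost on both centrings and after quantile normalization. Nlgn2, the neuroligin of inhibitory synapses, read 10.72, 11.65, 11.98 and 11.99 against 11.23, 11.85, 11.78 and 12.03. These overlapped, at -0.14 ± 0.30 (95% interval -0.80 to 0.53), and the difference was 0.67, 0.79 and 0.37 on the centred and quantile scales. Nlgn1, the neuroligin of excitatory synapses, read 7.59, 6.47, 6.97 and 5.20 against 7.63, 7.46, 6.71 and 6.70. Its difference of -0.57 ± 0.48 had the wide 95% interval of -1.64 to 0.51, and was 0.25, 0.36 and 0.65 on those scales.

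Lrrtm1, a postsynaptic protein that is prominent in thalamus, read 11.39, 10.65, 10.65 and 9.40 against 12.62, 12.77, 12.38 and 10.72. It was 3.04-fold lower (limma adjusted p = 0.018) and lower in all 4 pairs, although replicate 4 was low in both fractions and made them overlap. The call was lost on both centrings, after quantile normalization, and without unbound replicate 1 or 2. Lrrtm2, Lrrtm3 and Lrrtm4 differed by -0.97 ± 0.47, -0.49 ± 0.29 and -0.41 ± 0.28 (limma adjusted p = 0.098, 0.16 and 0.23). A second probe set of each was called lower, at -1.87, -1.36 and -2.55, so these 3 genes have no settled call. The medians of the neuroligins (-0.57) and the LRRTMs (-0.73) were above 0 on the centred scales (0.25 and 0.36 for neuroligins, 0.08 and 0.20 for LRRTMs) and after quantile normalization (0.37 and 0.15).

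Probe sets of a gene differed by a median of 0.91 on the log2 scale over the 20 genes with several tested. In 14 of the 20 all probe sets had the same call. The 6 that differed were Cntnap2, Lrrtm2, Lrrtm3, Lrrtm4, Pcdh10 and Pcdh17, and the widest gap was 2.136 in Lrrtm4. Probe sets of a gene can lie on different transcripts or at different distances from the 3′ end. The 3′ minus 5′ control signal of Actb was 3.71 ± 0.46 (SD, n = 4) in the immunoprecipitate and 3.39 ± 0.33 (SD, n = 4) in the unbound RNA, and that of Gapdh was 2.80 ± 1.14 and 2.34 ± 0.68. Replicate 4 stood apart for Gapdh, at 4.50 in the immunoprecipitate (the others 2.12 to 2.31) and 3.36 in the unbound RNA (the others 1.94 to 2.08), and it was also the lowest of both fractions for the members' median. The part of RNA quality in the members' differences was not tested.

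Among the 30 genes with no tested probe set, 25 lay under 50 on all arrays. Singled out after their values were seen, Cdh15 (M-cadherin, best known in muscle) and Cdh20 reached 50 on 3 immunoprecipitate arrays and on 0 unbound arrays. Cdh15 read 5.14, 6.07, 5.75 and 5.75 against 2.93 to 3.41. All unbound values and the lowest immunoprecipitate value were under the floor, so no size is given. Cdh20 read 4.84 to 6.05 against 4.43 to 5.12, which overlap. The filter also shaped the counts among tested genes. Of the 31 members at or above 50 on all 8 arrays, 19 were lower and 2 higher, beside 37.4% and 4.19% of the 8417 such genes. Their median was -1.39, against -0.67.

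Gene length moved with these differences. The members span a median of 153 kb of the genome, against 25.7 kb for all tested genes, and 30 of the 45 lie in the longest of 5 equal groups by length. There, 19 of 30 members were lower and 2 higher, beside 66.5% and 3.08% of all its genes, and their median of -1.39 was near the -1.54 of all genes there. The share of long members that were lower is thus close to that of other long genes. From the shortest to the longest group, the median over all tested genes went through -0.13, -0.52, -0.81, -1.15 and -1.54. Outside the longest group 13 of 15 members were lower and 0 higher, beside 38.6% and 5.17%, with a median of -1.84 against -0.68; 6 of these 15 were beta protocadherins, which share sequence. The part of length in the members' differences was not tested.

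**Figure D3:**
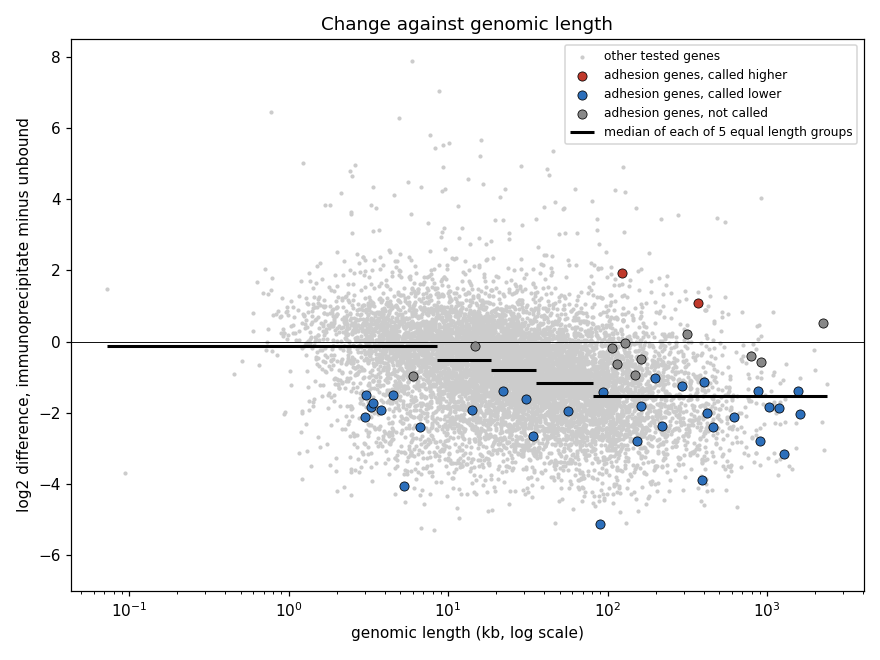
Log2 difference between immunoprecipitate and unbound RNA (y axis) against genomic length in kb (x axis, log scale) for the tested genes with a length, with adhesion genes as large points and black lines for the median of each of 5 equal groups by length. The medians go from -0.13 to -1.54, and Cdh22 and Cntn6 lie above 0 among long genes.

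Markers of other cells differed in level between the 4 immunoprecipitates, and the median of the adhesion genes had the same highest and lowest replicate. The mean log2 signal of 7 astrocyte markers was 6.76 to 8.54 in the immunoprecipitate and 10.31 to 10.44 in the unbound RNA, that of 7 oligodendrocyte markers 9.72 to 11.22 against 12.67 to 13.05, and that of 5 thalamic neuron markers 6.46 to 9.01 against 10.44 to 11.55. Precursor (3), microglial (4) and endothelial and mural markers (3) ranged over 4.75 to 6.26, 5.19 to 7.15 and 4.59 to 6.40 against 8.74 to 9.10, 8.73 to 9.16 and 7.59 to 8.01. Every tested marker of these 6 lists was called lower, beside 44.2% of all tested genes. Thalamic Lef1, microglial C1qa and Cx3cr1 and endothelial Cldn5 lay under 50 on every immunoprecipitate array. They entered the test through the unbound arrays alone, so that their calls were favoured by the filter. Of the 6 hypocretin neuron markers 5 were called higher, at 12.12 to 12.66 against 8.95 to 9.19.

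In each of the 6 lists immunoprecipitate replicate 1 was the highest and replicate 4 the lowest, as they were for the members' median (8.03 and 7.28), while replicate 1 was the lowest for the hypocretin markers. In the unbound RNA too, the members' median was highest in replicate 1 (9.29) and lowest in replicate 4 (8.88). Over single genes, replicate 1 was the highest immunoprecipitate in 28 of 45 members (62.2%, against 32.0% of all tested genes). Unbound replicate 1 was the highest of its fraction in 20 of 45 members (44.4%, against 17.4% of all tested genes). Among genes called lower, immunoprecipitate replicate 1 was the highest in 23 of 32 members (71.9%), against 53.8% of all such genes. Unbound replicate 1 was the highest of its fraction in 17 of these 32 members (53.1%), against 22.4% of all such genes. Cdh22 and Cntn6 had their lowest immunoprecipitate value in replicate 1, as did 70.0% of all genes called higher. The members' median was -1.85 without immunoprecipitate replicate 1 and -1.42 without replicate 4, against -0.81 and -0.86 over all tested genes. The part of RNA from other cells in the members' differences was not tested.

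**Figure D4:**
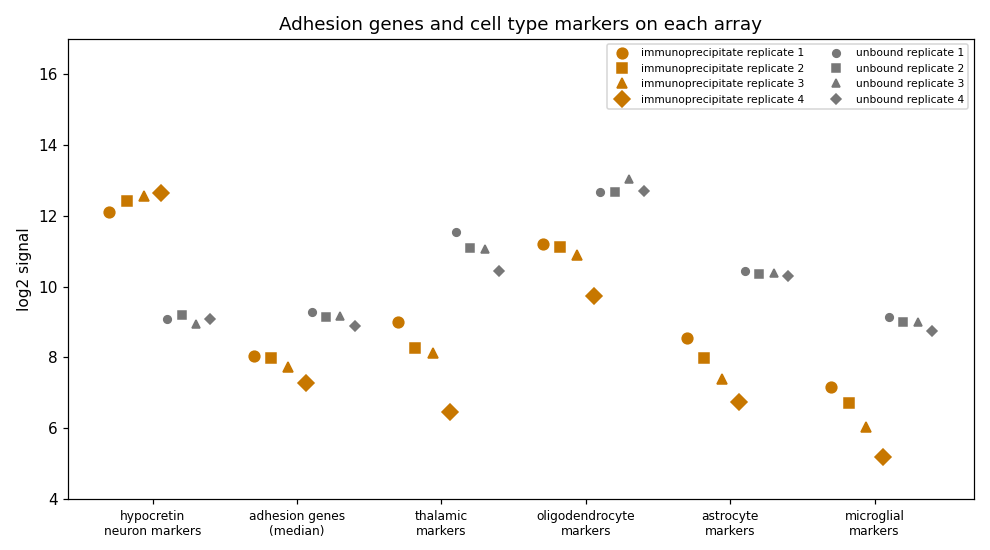
Log2 signal on each immunoprecipitate array (orange) and unbound array (grey), symbols giving the replicate: the mean over the tested markers of 5 cell types, and the median over the 45 adhesion genes. Immunoprecipitate replicate 1 is the highest orange point for the adhesion genes and for each of the 4 other-cell lists shown, and the lowest for hypocretin neuron markers.

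Partners of these proteins, from lists assembled by function, were mostly lower too. Of 6 tested catenins, which tie cadherins to actin, 5 were lower and 0 higher (median -2.18). Ctnnd2, a neuronal catenin of dendrites, was 8.71-fold lower (limma adjusted p = 3.6e-05), and Ctnnd1 and Jup at least 3.42-fold and 1.23-fold lower. Jup lay under 50 on every immunoprecipitate array and entered the test through the unbound arrays alone, so that its call was favoured by the filter. Of 7 tested large or distant cadherin relatives (2 Fat, 2 Celsr and 3 calsyntenin genes) 5 were lower and 0 higher (median -1.44). Of the 3 calsyntenins, type I membrane proteins with cadherin repeats, Clstn1 and Clstn3 were lower. Fat1 and Fat3 were at least 11.2-fold and 8.56-fold lower and Celsr2 was 5.27-fold lower. The same background applies to them, 44.2% lower and 4.74% higher over all tested genes.

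Of 35 other synaptic adhesion genes 26 were lower and 1 higher (median -1.65), beside 44.2% and 4.74% of all tested genes. Among the 26, Flrt1, Slitrk5 and Il1rapl1 lay under 50 on every immunoprecipitate array. They entered the test through the unbound arrays alone, so that their calls were favoured by the filter. Ptprd, a presynaptic receptor phosphatase, was 8.24-fold lower. Slitrk6 and Il1rapl1, 2 of the proteins it can bind, were at least 10.5-fold and 3.88-fold lower, Il1rapl1 being under 50 on every immunoprecipitate array. Ptprd, Slitrk6 and Il1rapl1 were named because they had the largest falls of the list (-3.04, -3.47 and -3.49 on the log2 scale). The 8 genes of the list that were not called included Lrfn4 (0.21) and Lrfn5 (-0.016). The higher gene was Cbln1, a secreted cerebellin that bridges neurexins to delta-type glutamate receptors. Its mean was 14.17 ± 0.32 (SD, n = 4) in the immunoprecipitate and 11.80 ± 0.42 (SD, n = 4) in the unbound RNA, which is 5.16-fold (2.37 ± 0.23, limma adjusted p = 2.7e-05), and 0.40 with an adjusted p of 0.12 on the poly-A controls. Of 16 immunoglobulin adhesion genes of axons 13 were lower and 2 higher (median -1.42), beside the same shares of all tested genes. Of the 16, 13 lie in the longest of 5 equal groups by length, where 66.5% of all genes were lower. Ncam2, called lower, lay under 50 on every immunoprecipitate array and entered the test through the unbound arrays alone. Chl1, Lsamp and Opcml were 6.07-fold, 4.76-fold and 4.03-fold lower. Nectin2 and Nectin3, which bind other nectins at cell contacts, were 2.59-fold and 2.21-fold higher (limma adjusted p = 0.010 and 0.015), but -0.59 and -0.82 on the poly-A controls, and Nectin3 was under 2-fold without unbound replicate 3 (0.85).

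On either centring the lower calls among these partners dropped to 4 catenins, 3 large cadherin relatives, 14 other synaptic and 4 immunoglobulin adhesion genes. Quantile normalization gave 5, 3, 14 and 4. Over all tested genes, 22.2%, 19.6% and 20.5% were lower on these scales, and 17.5%, 20.4% and 16.5% were higher. The higher calls then numbered 4 among the other synaptic genes (Cbln1, Cadm3, Lrfn2 and Lrfn4, the last 3 named after their values were seen), and Nectin2 and Nectin3 were the 2 among the immunoglobulin genes.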

How the data were processed

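RNA of 4 immunoprecipitates and 4 unbound fractions was measured on Affymetrix mouse arrays, from 20 ng of RNA per sample. The authors deposited log2 values that were made with GCRMA within each fraction separately, per the labels; that they are on the log2 scale was inferred from their range, and no version of GCRMA was given. Because the fractions were normalized apart, 1 constant per fraction was added so that 18 biotinylated controls had equal means; as deposited these differed by 0.022. The 64 control probe sets were then left out. Probe sets with a linear signal of 50 or more on at least 4 arrays were tested with limma 3.58.1 (lmFit and eBayes with a trend, R 4.3.3) without a block. Summaries used Python 3.11.15 and figures matplotlib 3.10.9.

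Genes were named from GEO's platform annotation, which can be old, through probe sets with 1 symbol. Of the members, those described by name were the called genes with the largest differences in each cadherin family and all tested contactins, contactin-associated proteins, neurexins, neuroligins and LRRTMs, plus Cdh5. The members, lists and tests were chosen with earlier results of these data known. Genomic lengths and upstream sequences are RefSeq's on GRCm38.p6.

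Replicate numbers pair the fractions: the labels give each unbound sample as the remainder of the precipitate of that number, and once group means were subtracted the arrays correlated at 0.44, 0.33, 0.25 and 0.59 within numbers, against at most -0.056, 0.26, 0.26 and -0.10 with another number, so that replicate 3 correlated no better with its own. In simulated data with 17865 probe sets, the test called 61.2%, 79.1% and 98.5% of changes of 1.5, 2 and 3 on the log2 scale and 8 of 17665 unchanged probe sets. Those simulated data had independent noise, no shift between fractions, and only 67, 67 and 66 changed probe sets of these sizes. In the measured data 872 probe sets were called higher and 8059 lower, and the calls depended on the scale. The simulated rates therefore do not carry over to the measured comparison. The number of arrays limits the precision. The labels do not say whether the 4 pools came from separate litters or days, so p-values measure only the spread between these samples. Alternatives covered scaling, filter, fold limit, variance trend, replicate block, probe set choice and each array left out.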

Additional observations from a re-analysis of the deposited data

Results flagged for a closer look

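In 6 of the 90 groups of 4 arrays examined (45 genes in each fraction), 1 array stood apart by a gap to the nearest other above Dixon's 95% critical value; chance gives about 1 group in 20. In the immunoprecipitate, Cdh19 was highest on replicate 1 at 3.685, with the others between 2.385 and 2.494, all under the floor of 50. In the unbound RNA, Cntn2 was lowest on replicate 3 at 8.077, beside 8.622 to 8.629. Nrxn2 was lowest on unbound replicate 2 at 9.80, beside 10.02 to 10.05. Pcdh15 was lowest on unbound replicate 3 at 5.509, beside 7.163 to 7.474. Pcdh9 was highest on unbound replicate 1 at 14.09, beside 13.49 to 13.52. Pcdhb3 was lowest on unbound replicate 4 at 6.871, beside 7.597 to 7.682.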

How the results depend on the processing

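Scaling mattered most. After centring on the median of all probe sets, 3150 probe sets were higher and 4228 lower (42.7% of calls higher, against 9.76% on the biotinylated controls). Of the members, 5 probe sets were higher and 30 lower, 4 genes higher and 19 lower, and the median was -0.79. Above 0 there were Cdh9 (0.77), Lrrtm3 (0.32), Lrrtm4 (0.40), Nlgn1 (0.25), Nlgn2 (0.67), Nrxn2 (0.18) and Pcdh19 (0.62). Centring on the median of the tested probe sets, added after the data were seen, gave 3666 higher and 3789 lower (49.2% higher), 5 and 24 member probe sets, 4 and 14 member genes and a median of -0.68, with these genes at 0.88, 0.44, 0.51, 0.36, 0.79, 0.29 and 0.73. Quantile normalization gave 3091 and 3715 (45.4% higher), 5 and 23, 4 and 14 and a median of -0.77, with these genes at 0.92, 0.33, 0.67, 0.65, 0.37, 0.14 and 0.56 and Cdh6 at 0.061. The poly-A controls gave 125 higher and 16823 lower (0.74% higher), 0 member probe sets and 0 member genes higher, a median of -3.57, and Cdh22 at -0.054, Cntn6 at -0.88, Cntnap2 at -1.45 and Cntnap4 at -1.75. The cause was not tested.

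Without a filter, 1402 probe sets were higher and the median over 75 members was -0.97. With no fold limit 1489 were higher. With a 4-fold limit 257 were higher and 3714 lower, with 0 and 23 member probe sets and 0 and 13 member genes. Averaging the probe sets of each gene put Cntnap2 at -0.41 and Pcdh19 at 0.062. The replicate block gave 931 higher and 8192 lower and changed none of the 45 member calls. Leaving out 1 array gave 775 to 1064 higher and 7840 to 8163 lower, 1 to 2 and 49 to 55 member probe sets, 1 to 2 and 29 to 34 member genes, and a median from -1.85 to -1.42. Cdh9 ranged from -0.13 to 0.074, being 0.074 without immunoprecipitate replicate 2 and 0.044 without unbound replicate 3, and Nlgn2 ranged from -0.30 to 0.15, the highest without immunoprecipitate replicate 1. Signal limits the 14 members with values under 50.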
